A study of Homo sapiens with 6 samples.

Results

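A set of 10 genes whose proteins bind tubulin or the microtubule was followed in SU-DHL-8 cells, and 10 of 10 were found by symbol among the 65746 symbols of the count table. They were the stathmin genes STMN1 and STMN3, the end-binding genes MAPRE1 and MAPRE2, the lattice-binding genes MAP4, MAP1S and MAP7, and the plus-end genes CLIP1, CLASP1 and CLASP2. SU-DHL-8 is an established line of human diffuse large B-cell lymphoma (DLBCL), labelled wild type and grown in RPMI medium with 10% serum. Cells received 100 nM erianin, a tubulin-binding bibenzyl of Dendrobium orchids, or DMSO as the vehicle, and total RNA was sequenced after 24 h. There were 3 numbered libraries per group, and whether they came from separate cultures is not given in the labels, so every p-value rests on a spread that may be technical. The data cover 1 cell line, 1 dose and 1 time.

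As background, a microtubule grows and shrinks at its plus end by gain and loss of tubulin dimers. Stathmins bind free tubulin dimers and favour shrinkage until mitotic kinases phosphorylate them. End-binding proteins track the growing end and recruit the plus-end proteins CLIP1 (CLIP-170) and the CLASPs, of which the CLASPs favour rescue and slow growth. MAP4, MAP1S and MAP7 lie along the lattice, where MAP4 stabilises the polymer and MAP7 recruits kinesin. These proteins act beside the drug's target, and the data below are transcript levels only.

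The 6 libraries held 30956443 to 35588728 counts. A count of 3, taken as the floor, equals 0.0843 to 0.0969 CPM (counts scaled to library size) by raw library totals and covers counting error only. The levels in CPM below also carry TMM scaling factors. DMSO replicate 1 stood apart. The biological coefficient of variation (the spread beyond counting noise) was 0.287 and 0.290 when it was paired with DMSO replicate 2 or 3. It was 0.0402 for DMSO replicates 2 and 3 themselves and 0.0361 to 0.0881 among the erianin libraries. Pairs of DMSO replicate 2 or 3 with an erianin library gave 0.218 to 0.244. DMSO replicate 1 thus differed more from the other DMSO libraries than those did from the erianin libraries. Results are therefore given with and without DMSO replicate 1. The B-cell label held, since 8 of 8 B-cell and germinal-centre markers were tested and 7 averaged at least 10 CPM over the libraries. Summed B-cell markers gave 2741 to 3758 CPM with DMSO and 2313 to 2585 CPM with erianin. Of the 8, PAX5, the B-cell identity factor, fell from 836 ± 84.8 to 419 ± 12.9 CPM (edgeR adjusted p = 0.0023), and CD79B, a chain of the B-cell receptor, fell from 1726 ± 585.5 to 944 ± 74.4 CPM (edgeR adjusted p = 0.044). CD79A, its partner chain, rose from 449.99 ± 3.31 to 590.2 ± 45.7 CPM (edgeR adjusted p = 0.028). That call ended with the offsets for GC content and length described below (edgeR adjusted p = 0.63). CD79A was called higher without DMSO replicate 1, both without the offsets (edgeR adjusted p = 9.6e-06) and with them (edgeR adjusted p = 4.1e-08). Summed T-cell and NK-cell markers gave 104 to 113 CPM with DMSO and 65.2 to 70.3 CPM with erianin, nearly all from TRBC2, with CD2 at 0 counts. Summed myeloid markers gave 4.57 to 7.70 CPM with DMSO and 9.79 to 11.4 CPM with erianin, with S100A8 and S100A9 at 0 counts. Of the 8 myeloid markers, 2 rose, among them CD14 from at most 0.265 CPM in a DMSO library to at least 1.56 CPM in an erianin library. The part of these transcripts in the results below was not tested. In bulk RNA, fewer cells that express a gene and less RNA per cell cannot be told apart.

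Erianin was compared with DMSO by the quasi-likelihood test of edgeR over 11550 genes, with Benjamini-Hochberg adjusted p-values called at 0.05. Of the 10 genes, 9 had enough counts to be tested. MAP1S rose, CLASP1 fell and 7 were not called. These 2 of 9 stand against 24.2% of all tested genes called in either direction, 11.8% higher and 12.3% lower. The median log2 fold change was 0.10 over the 9 genes and -0.003 over all tested genes. MAP1S and CLASP1 were also the members whose groups did not overlap, which held for 46.8% of all tested genes. Without DMSO replicate 1, 5 of the 9 were called higher (STMN1, MAPRE2, MAP4, MAP1S and CLIP1) and 1 lower (CLASP1), where 55.3% of all genes tested were called, 27.8% higher and 27.4% lower. The median over the 9 genes was then 0.22, against 0.03 over all genes. With offsets for the trends in GC content and length of each library, 1 of the 9 was called, CLASP1, against 35.8% of all genes in either direction and 21.2% lower. With the offsets and without DMSO replicate 1, 4 members were called higher (MAPRE2, MAP4, MAP1S and CLIP1), against 24.8% of all genes, and 2 lower (MAPRE1 and CLASP1), against 36.8%.

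**Figure D1:**
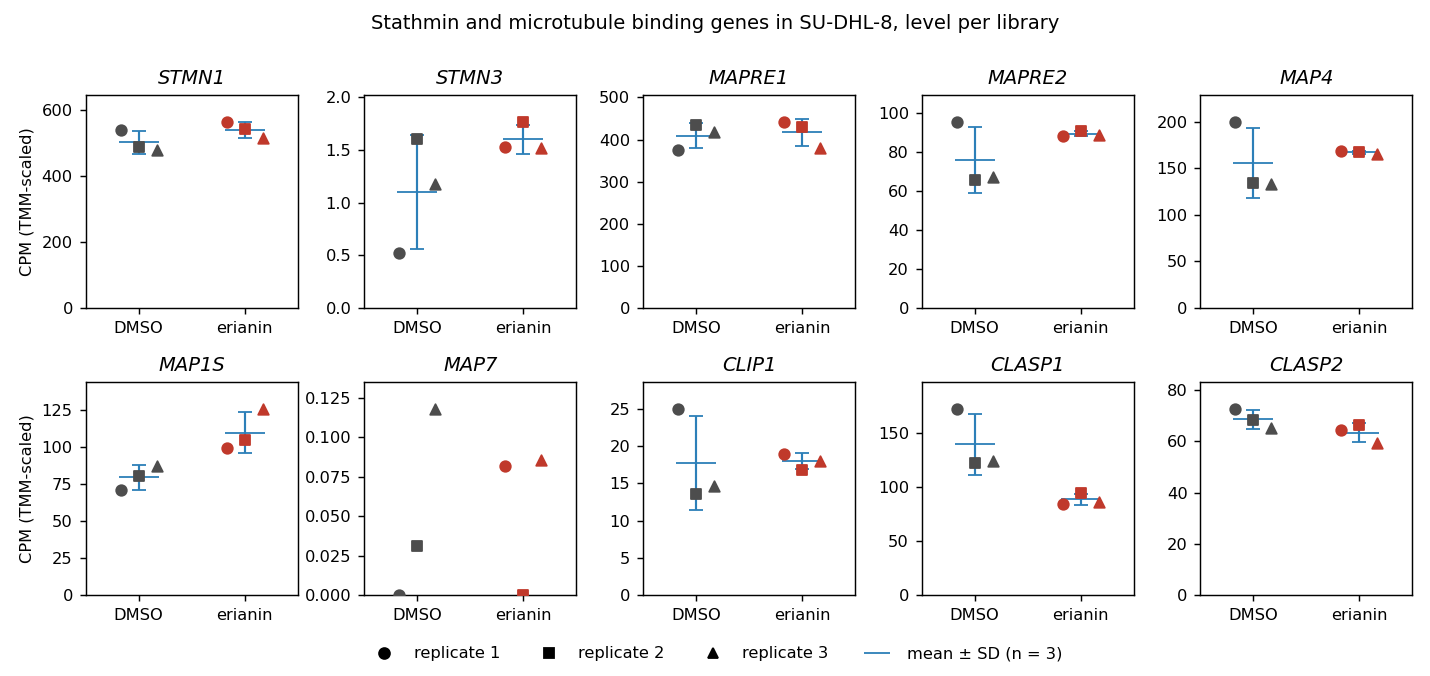
Level of each gene in every library, as CPM scaled by TMM factors (vertical axes start at 0 and differ between genes), with DMSO in grey, erianin in red, the marker shape giving the replicate number and the blue bar the mean ± SD of 3 libraries (left out for MAP7, which had at most 4 counts). The erianin libraries lie above all DMSO libraries for MAP1S and below them for CLASP1, while for MAPRE2, MAP4 and CLIP1 DMSO replicate 1 is the highest of the 6.

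The members covered a wide range of abundance. Per kilobase of exonic sequence in GENCODE 29, MAPRE1 was highest with DMSO at 156 ± 11.6 CPM per kilobase (SD, n = 3), followed by STMN1 at 80.1 ± 5.39. Of 11405 tested genes with a length, 98.04% and 95.7% lay below these levels, averaged over the 6 libraries. MAP1S had 15.8 ± 1.65 CPM per kilobase with DMSO. CLASP1 (12.6 ± 2.54), MAPRE2 (12.2 ± 2.703) and MAP4 (10.4 ± 2.52) stood in that order in each DMSO library. The SDs of these genes came mainly from DMSO replicate 1, the highest DMSO library for each, so they do not measure the difference between genes within a library. CLASP2 (4.51 ± 0.243), CLIP1 (0.955 ± 0.338) and STMN3 (0.363 ± 0.179) were lower, in that order. With erianin, CLASP1 stood below MAP4 and MAPRE2, at 8.02 ± 0.50 CPM per kilobase against 11.2 ± 0.123 and 14.4 ± 0.226. The deposited TPM values, which are also scaled by length, placed MAPRE1 and STMN1 first as well but put MAP4 ahead of MAPRE2 and CLASP1 with DMSO. The length behind a TPM value can be read from its ratio to the count. Scaled so that the median gene has its GENCODE exonic length, it was 1076 bases for MAPRE1, whose GENCODE exons cover 2623 bases, and 10773 bases for MAPRE2, whose exons cover 6180. A level ratio between these paralogs thus depends on which lengths are used, while a change of that ratio between groups does not.

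CLASP1, on chromosome 2 (121337776 to 121649587, minus strand, GRCh38), encodes a protein that promotes rescue and pausing at plus ends and kinetochores. It had 172, 123 and 124 CPM in DMSO replicates 1, 2 and 3. In erianin replicates 1, 2 and 3 it had 84.7, 94.9 and 86.2 CPM. All 3 erianin libraries thus lay below the lowest DMSO library, and DMSO replicate 1 was the highest of the 6. The mean fell from 140 ± 28.1 to 88.6 ± 5.53 CPM (log2 fold change -0.66 ± 0.15, SE, adjusted p = 0.022 by edgeR). When DMSO replicate 1 was left out the log2 fold change was -0.46 ± 0.07 (edgeR adjusted p = 2.1e-06). With GC content and length offsets in all 6 libraries it was -0.56 ± 0.09 (edgeR adjusted p = 0.0041). The call ended without any 1 of the erianin libraries (edgeR adjusted p = 0.083 to 0.11), with total counts alone as scaling (edgeR adjusted p = 0.0503) and on the deposited TPM scale with either pseudocount (limma adjusted p = 0.11). The antisense transcript AC012447.1 covers 324 exonic bases of CLASP1, and reads of the 2 strands cannot be told apart unless the counting used strand, which is not given in the sources used here.

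CLASP2, the paralog with overlapping functions, lies on chromosome 3 (33496245 to 33718356, minus strand). It had 72.4, 68.3 and 65.1 CPM in DMSO replicates 1, 2 and 3. The erianin libraries had 64.5, 66.4 and 59.3 CPM, in the same order, and the groups overlapped. CLASP2 was not called (log2 fold change -0.11 ± 0.10, edgeR adjusted p = 0.46). The sign of its small difference turned with the offsets in all 6 libraries and on the TPM scale. With the offsets and without DMSO replicate 1 CLASP2 was at -0.11 ± 0.05, just short of a call (edgeR adjusted p = 0.0526). The ratio of CLASP1 to CLASP2 within a library needs no scaling between libraries. In TPM it was 2.47, 1.87 and 1.985 in DMSO replicates 1, 2 and 3, and 1.37, 1.49 and 1.52 in erianin replicates 1, 2 and 3. The 3 erianin ratios were all below the lowest DMSO ratio. The log2 ratio was lower by a difference of -0.52, from 1.07 ± 0.212 to 0.542 ± 0.0800 (SD, n = 3 each). A two-sided exact permutation test gave p = 0.1, the smallest that 3 against 3 libraries allow, and 0.3 after adjustment over the 3 ratios compared. Without DMSO replicate 1, which had the highest ratio, the log2 difference was -0.40 (exact permutation p = 0.2, the smallest possible).

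The promoter windows of the paralogs are shown because CLASP1 is the member that fell and CLASP2 is its paralog. They run from 250 bases before to 50 after a RefSeq start site, 5′ to 3′ on the gene's strand (GRCh38.p14). The window of CLASP1 is chr2:121649413-121649712 (minus strand) and that of CLASP2 is chr3:33718205-33718504 (minus strand). Capitals mark matches on either strand to 7 motifs, chosen after the windows had been read: the CHR TTTGAA, the CCAAT box, the GC box GGGCGG, the E-box CACGTG, the E2F-type TTTGGCGC, the CRE TGACGTCA and the TATA motif TATAAA.
CLASP1: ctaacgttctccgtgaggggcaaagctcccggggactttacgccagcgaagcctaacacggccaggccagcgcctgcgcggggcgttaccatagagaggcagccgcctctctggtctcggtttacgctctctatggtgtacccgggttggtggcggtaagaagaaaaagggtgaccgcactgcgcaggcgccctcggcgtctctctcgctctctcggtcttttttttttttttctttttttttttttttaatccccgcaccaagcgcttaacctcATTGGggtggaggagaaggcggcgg
CLASP2: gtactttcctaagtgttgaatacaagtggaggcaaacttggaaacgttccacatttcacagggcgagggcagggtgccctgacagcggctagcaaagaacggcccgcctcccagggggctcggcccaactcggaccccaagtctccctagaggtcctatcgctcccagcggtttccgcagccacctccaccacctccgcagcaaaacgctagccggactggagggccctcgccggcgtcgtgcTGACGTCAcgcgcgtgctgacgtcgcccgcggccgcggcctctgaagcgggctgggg
CLASP1 held a CCAAT box on the opposite strand, first base at 26 counted from the start site as 1, and none of the other motifs. CLASP2 held a CRE, first base at -7, in the first of its 3 windows in the RefSeq table, and its other windows were not searched. Of 27305 promoter windows of this length, 1 per gene, 35.7% held a CCAAT box and 1.98% a CRE. A match is a run of letters, and none was tested for binding.

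**Figure D2:**
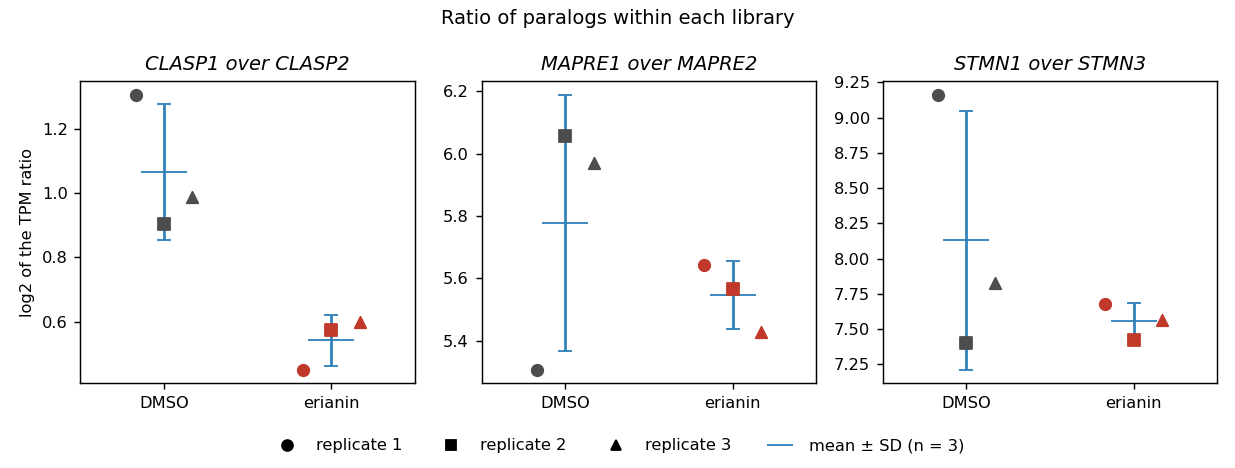
Log2 of the TPM ratio of 3 pairs of paralogs within each library, with DMSO in grey, erianin in red, the marker shape giving the replicate number and the blue bar the mean ± SD of 3 libraries (vertical axes differ and do not start at 0). For CLASP1 over CLASP2 the groups do not overlap, with TPM ratios of 1.87 to 2.47 against 1.37 to 1.52. In all 3 pairs DMSO replicate 1 lies apart from DMSO replicates 2 and 3.

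MAP1S, on chromosome 19 (17719242 to 17734516, plus strand), encodes the short member of the MAP1 family, which also binds the autophagy protein LC3. It had 71.0, 80.5 and 87.6 CPM in DMSO replicates 1, 2 and 3. It had 99.7, 105 and 126 CPM in erianin replicates 1, 2 and 3. The groups did not overlap, and erianin replicate 3 was the highest. The mean rose from 79.7 ± 8.32 to 110.07 ± 13.8 CPM (log2 fold change 0.47 ± 0.13, edgeR adjusted p = 0.042). Leaving out DMSO replicate 1 gave a log2 fold change of 0.40 ± 0.08 (edgeR adjusted p = 0.00016). MAP1S lost its call when offsets for GC content and length were used in all 6 libraries (0.20 ± 0.13, edgeR adjusted p = 0.25), and its longest transcript has the highest GC content of the 10 members at 68.1%. With the offsets and without DMSO replicate 1 it was called again (0.36 ± 0.05, edgeR adjusted p = 2.8e-06). The call also ended without any 1 library other than DMSO replicate 1 (edgeR adjusted p = 0.058 to 0.13) and on the TPM scale with either pseudocount (limma adjusted p = 0.11 and 0.12). The antisense transcript AC008761.1 covers 217 exonic bases of MAP1S, with the same limit as for CLASP1. The window of MAP1S, chr19:17719230-17719529 (plus strand), is shown as that of the member that rose.
MAP1S: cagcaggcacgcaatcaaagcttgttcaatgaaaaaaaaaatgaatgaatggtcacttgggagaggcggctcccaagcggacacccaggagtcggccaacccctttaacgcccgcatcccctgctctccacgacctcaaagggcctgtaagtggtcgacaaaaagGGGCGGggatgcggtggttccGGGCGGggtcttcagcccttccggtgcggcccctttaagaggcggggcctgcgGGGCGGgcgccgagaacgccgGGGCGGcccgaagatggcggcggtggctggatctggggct
It held 4 GC boxes, a motif found in 44.6% of all windows, and none of the other motifs.

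MAP4, the main lattice-binding protein of cells outside the nervous system, lies on chromosome 3 (47850690 to 48089272, minus strand). It had 199, 135 and 133 CPM in DMSO replicates 1, 2 and 3. It had 169, 167 and 165 CPM in erianin replicates 1, 2 and 3. The erianin libraries were nearly equal and lay below DMSO replicate 1 and above DMSO replicates 2 and 3. With all 6 libraries MAP4 was not called (log2 fold change 0.10 ± 0.17, edgeR adjusted p = 0.698), and its sign turned without DMSO replicate 3. Without DMSO replicate 1 it was called higher, from a mean of 134 to 167 CPM (0.33 ± 0.06, edgeR adjusted p = 5.2e-05), and with the offsets as well (0.39 ± 0.04, edgeR adjusted p = 6.1e-08). The other lattice-binding member, MAP7, had 0, 1 and 4 counts in DMSO replicates 1, 2 and 3. It had 3, 0 and 3 counts in the erianin libraries, which is at or near the floor in both groups, so no fold change is given.

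MAPRE1 encodes EB1, the end-binding protein that marks growing plus ends, on chromosome 20 (32819893 to 32850405, plus strand). It had 376, 434 and 419 CPM in DMSO replicates 1, 2 and 3. It had 441, 430 and 381 CPM in erianin replicates 1, 2 and 3. The groups overlapped throughout, and the lowest library of each was at about the same level. MAPRE1 was not called (log2 fold change 0.03 ± 0.11, edgeR adjusted p = 0.88). Its sign turned without DMSO replicate 1 and with the offsets, and with both together it was called lower (-0.21 ± 0.04, edgeR adjusted p = 0.00011).

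MAPRE2 encodes EB2, a paralog that tracks plus ends more weakly, on chromosome 18 (34976928 to 35143470, plus strand). It had 94.9, 65.3 and 66.8 CPM in DMSO replicates 1, 2 and 3. It had 88.2, 90.8 and 88.5 CPM in erianin replicates 1, 2 and 3. As for MAP4, the erianin libraries lay close together, below DMSO replicate 1 and above the other DMSO libraries. MAPRE2 was not called with all 6 libraries (log2 fold change 0.24 ± 0.16, edgeR adjusted p = 0.32). It was called higher without DMSO replicate 1 (0.45 ± 0.07, edgeR adjusted p = 4.5e-06), at 1.35 times the mean of DMSO replicates 2 and 3, and likewise with the offsets (0.31 ± 0.05, edgeR adjusted p = 9.7e-06). It was also called higher on the TPM scale with all 6 libraries (0.50 and 0.53 with the 2 pseudocounts, limma adjusted p = 0.034 and 0.035). On that scale the median of all genes was 0.20 and 0.28, and 84.3% and 83.8% of all calls were higher. The part of that shift in the MAPRE2 call was not tested. In counts, MAPRE1 exceeded MAPRE2 by 3.96, 6.65 and 6.27 times in DMSO replicates 1, 2 and 3. The count ratio was 5.0, 4.74 and 4.30 in erianin replicates 1, 2 and 3, above DMSO replicate 1 and below the others. Its log2 difference was -0.23 (exact permutation p = 0.4, adjusted 0.5). It was -0.47 without DMSO replicate 1 (exact permutation p = 0.2, the smallest possible).

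The windows of the end-binding genes, chr20:32819704-32820003 for MAPRE1 and chr18:35041163-35041462 for MAPRE2 (both plus strand), are shown as those of the pair whose levels differ most among the paralogs that are both well expressed.
MAPRE1: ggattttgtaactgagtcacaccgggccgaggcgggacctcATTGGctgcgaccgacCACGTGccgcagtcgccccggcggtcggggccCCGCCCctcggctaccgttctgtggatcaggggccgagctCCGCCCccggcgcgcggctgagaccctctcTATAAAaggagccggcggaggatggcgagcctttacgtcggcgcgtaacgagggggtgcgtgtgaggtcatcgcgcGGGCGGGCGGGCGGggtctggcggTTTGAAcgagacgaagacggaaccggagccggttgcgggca
MAPRE2: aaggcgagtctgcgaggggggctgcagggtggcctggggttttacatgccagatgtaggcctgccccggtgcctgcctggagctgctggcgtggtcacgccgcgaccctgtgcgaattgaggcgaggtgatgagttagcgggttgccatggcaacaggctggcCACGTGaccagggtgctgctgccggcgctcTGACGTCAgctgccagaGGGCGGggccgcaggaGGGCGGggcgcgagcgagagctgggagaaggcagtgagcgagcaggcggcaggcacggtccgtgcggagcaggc
Both held an E-box, found in 7.43% of all windows, and GC boxes. MAPRE1 also held a CCAAT box, a TATA motif first base at -91 and, just after the start site, a CHR, found in 11.95% and 15.4% of windows for the last 2. MAPRE2 held a CRE instead. MAPRE2 has 2 windows in the RefSeq table and the first was used, since the data do not show which start the cells use.

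CLIP1, on chromosome 12 (122271432 to 122422632, minus strand), encodes CLIP-170, which binds growing ends and links them to cargo. It had 24.9, 13.6 and 14.6 CPM in DMSO replicates 1, 2 and 3. It had 19.0, 16.8 and 18.04 CPM in erianin replicates 1, 2 and 3. DMSO replicate 1 was again the highest library and DMSO replicates 2 and 3 were the lowest. CLIP1 was not called with all 6 libraries (log2 fold change 0.02 ± 0.23, edgeR adjusted p = 0.96), and its sign turned when DMSO replicate 2, DMSO replicate 3 or erianin replicate 1 was left out. Without DMSO replicate 1 it was called higher (0.36 ± 0.10, edgeR adjusted p = 0.0035), and with the offsets as well (0.36 ± 0.08, edgeR adjusted p = 0.0014). In the count fits, CLIP1, MAPRE2 and MAP4 were thus called only where DMSO replicate 1 was left out. MAPRE2 was also called on the TPM scale with all 6 libraries, where the median of all genes was shifted upward. DMSO replicate 1 exceeded the mean of the other DMSO libraries by 0.82, 0.52 and 0.57 on the log2 scale for these 3 genes.

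STMN1 encodes stathmin (oncoprotein 18), which sequesters tubulin dimers, on chromosome 1 (25884181 to 25906991, minus strand). It had 540, 486 and 478 CPM in DMSO replicates 1, 2 and 3. It had 562, 543 and 514 CPM in erianin replicates 1, 2 and 3. The groups overlapped only through DMSO replicate 1, and the whole range was narrow. STMN1 was not called (log2 fold change 0.11 ± 0.10, edgeR adjusted p = 0.48). It was called higher by a small step once DMSO replicate 1 was left out (0.18 ± 0.06, edgeR adjusted p = 0.015), which was 0.005 ± 0.04 once the offsets were added (edgeR adjusted p = 0.91). The first of its 3 windows, chr1:25906370-25906669 (minus strand), is shown because it alone among the members' first windows held an E2F-type motif. Further windows of the members were not searched.
STMN1: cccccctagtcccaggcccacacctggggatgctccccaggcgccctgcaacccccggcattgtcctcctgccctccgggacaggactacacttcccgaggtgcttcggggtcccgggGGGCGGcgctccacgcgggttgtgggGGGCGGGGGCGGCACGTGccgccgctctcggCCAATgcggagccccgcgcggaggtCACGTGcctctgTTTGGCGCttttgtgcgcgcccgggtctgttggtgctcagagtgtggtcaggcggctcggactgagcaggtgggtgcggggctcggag
The E2F-type motif, first base at -38, was found in 0.659% of all windows. The window also held a CCAAT box, 3 GC boxes and 2 E-boxes. No promoter signal was measured here.

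STMN3, a stathmin gene known mainly from neurons, lies on chromosome 20 (63639705 to 63657682, minus strand). It had 16, 52 and 40 counts in DMSO replicates 1, 2 and 3. It had 56, 61 and 53 counts in erianin replicates 1, 2 and 3. In CPM the DMSO libraries ranged from 0.526 to 1.60 and the erianin libraries from 1.51 to 1.76, so the groups overlapped at DMSO replicate 2. STMN3 was not called (log2 fold change 0.53 ± 0.36, edgeR adjusted p = 0.33), and without DMSO replicate 1 the log2 fold change was 0.22 ± 0.26 (edgeR adjusted p = 0.51). Of the 9 tested members, STMN3, MAP1S and MAPRE1 were lowest in DMSO replicate 1. The GC content of their longest transcripts was 63.5%, 68.1% and 43.8%, the first 2 being the highest among the members, and the part of GC content in that order was not tested. Its level relative to STMN1 was set by the same library. STMN1 exceeded STMN3 by 573 times in TPM in DMSO replicate 1 and by 169 to 226 times in the other 5 libraries.

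**Figure D3:**
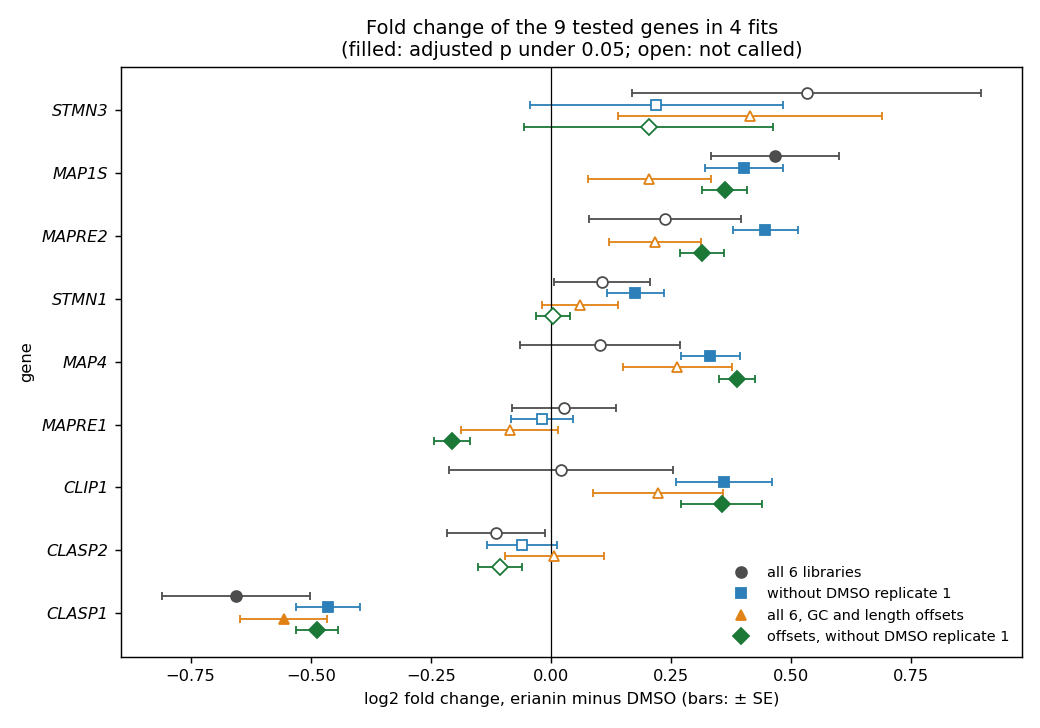
Log2 fold change (erianin minus DMSO, horizontal axis) with its SE for the 9 tested genes in 4 fits, with filled markers at an adjusted p under 0.05 by edgeR and open markers for genes not called. CLASP1 is called lower in all 4 fits (-0.66 to -0.46), MAP1S is called higher in 3 of them, and MAP4, MAPRE2 and CLIP1 are called only in the 2 fits without DMSO replicate 1.

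Other genes of microtubule dynamics were taken as 6 lists by role, 111 genes in all, of which 91 were tested. Among these 91, 7 rose, 16 fell and 68 were not called, which is 25.3% called against 24.2% of all genes. Their median log2 fold change was -0.19, against -0.003 over all genes. Without DMSO replicate 1, 92 were tested, of which 23 were called higher and 27 lower (54.3%, against 55.3% of all genes, 27.8% higher and 27.4% lower). The median was then -0.05, against 0.03 over all genes. Of 28 other plus-end and minus-end proteins tested, 2 rose and 8 fell, where 11.8% of all genes rose and 12.3% fell. Without DMSO replicate 1 the calls in this list were 9 higher and 10 lower. CLIP2, the paralog of CLIP1, rose from 28.0 ± 1.28 to 45.04 ± 2.65 CPM, with 26.8 to 29.4 CPM in the DMSO libraries and 42.6 to 47.8 CPM in the erianin libraries (log2 fold change 0.69 ± 0.10, edgeR adjusted p = 0.0053). It was called under all 19 alternatives, whereas CLIP1 was called under 2. SPAG5 (astrin), a spindle protein that tracks plus ends, rose from 109 ± 2.62 to 151.99 ± 3.15 CPM. KIF18B, a kinesin that binds EB1 and shortens astral microtubules, fell from 257 ± 19.2 to 139.7 ± 8.89 CPM (-0.88 ± 0.11, edgeR adjusted p = 0.0028). GTSE1, another partner of EB1, fell from 204 ± 8.01 to 130.4 ± 0.848 CPM (-0.64 ± 0.09, edgeR adjusted p = 0.0044).

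Over all genes, 24.2% were called with all 6 libraries and 55.3% without DMSO replicate 1. Of 15 spindle proteins tested, 1 rose and 3 fell (26.7%), and without DMSO replicate 1 the calls were 3 higher and 4 lower (46.7%). FAM83D, which brings casein kinase to the spindle, rose from 45.1 ± 3.30 to 71.3 ± 2.26 CPM. CEP192, a centrosome scaffold, fell from 74.7 ± 9.98 to 43.8 ± 1.85 CPM and NUMA1, which focuses spindle poles, fell from 232 ± 10.3 to 168 ± 6.21 CPM. Of 20 severing and tubulin-modifying enzymes, 1 rose and 3 fell (20%), against 4 higher and 7 lower without that library (55%). ATAT1, the tubulin acetyltransferase, rose from 8.001 ± 1.05 to 11.2 ± 0.715 CPM (edgeR adjusted p = 0.044). TTLL4, a glutamylase, fell from 105 ± 13.9 to 69.4 ± 3.66 CPM. Of 17 kinases and phosphatase subunits, 2 rose and 2 fell (23.5%), against 3 higher and 4 lower without DMSO replicate 1 (41.2%). AURKA rose from 214 ± 16.2 to 313 ± 14.05 CPM and MAPK13 rose from 1.13 ± 0.299 to 2.56 ± 0.662 CPM, while CDK1 fell from 145 ± 29.1 to 79.2 ± 5.97 CPM and AURKB fell from 313 ± 29.6 to 229.7 ± 3.998 CPM. CDK1 and Aurora B, which AURKB encodes, are known to phosphorylate stathmin in mitosis, and the stress kinase p38 delta, which MAPK13 encodes, does so under stress. Of 11 other lattice-binding proteins, 1 was called (9.09%). It was ARHGEF2, which ties microtubules to RhoA and rose (188 ± 10.2 to 244 ± 8.83 CPM, edgeR adjusted p = 0.029). Without DMSO replicate 1, 12 genes of that list were tested, with 4 called higher and 2 lower (50%). The remaining relatives STMN2, STMN4 and MAPRE3 had too few counts to be tested. The calls of ARHGEF2, ATAT1 and AURKB ended without any 1 library other than DMSO replicate 1 (edgeR adjusted p = 0.0924 to 0.114, 0.103 to 0.164 and 0.0679 to 0.117), and that of ATAT1 also ended with the GC content and length offsets (edgeR adjusted p = 0.0506). The calls of TTLL4 and CDK1 ended without any 1 of the erianin libraries (edgeR adjusted p = 0.0607 to 0.0876 and 0.0531 to 0.0546). That of MAPK13 ended without any 1 of them or without DMSO replicate 3 (edgeR adjusted p = 0.0526 to 0.0859). Those of SPAG5, NUMA1 and AURKA ended without erianin replicate 1 or 2 (edgeR adjusted p = 0.0629 to 0.0932). CLIP2, KIF18B, GTSE1, FAM83D and CEP192 stayed called whichever library was left out. On the TPM scale the calls of KIF18B, GTSE1 and CEP192 ended with either pseudocount (limma adjusted p = 0.0587 to 0.221). That of FAM83D ended with 0.1 added (limma adjusted p = 0.0513), and CLIP2 stayed called. The calls of ARHGEF2, SPAG5, NUMA1, TTLL4 and AURKB also ended on the TPM scale (limma adjusted p = 0.0569 to 0.682).

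**Figure D4:**
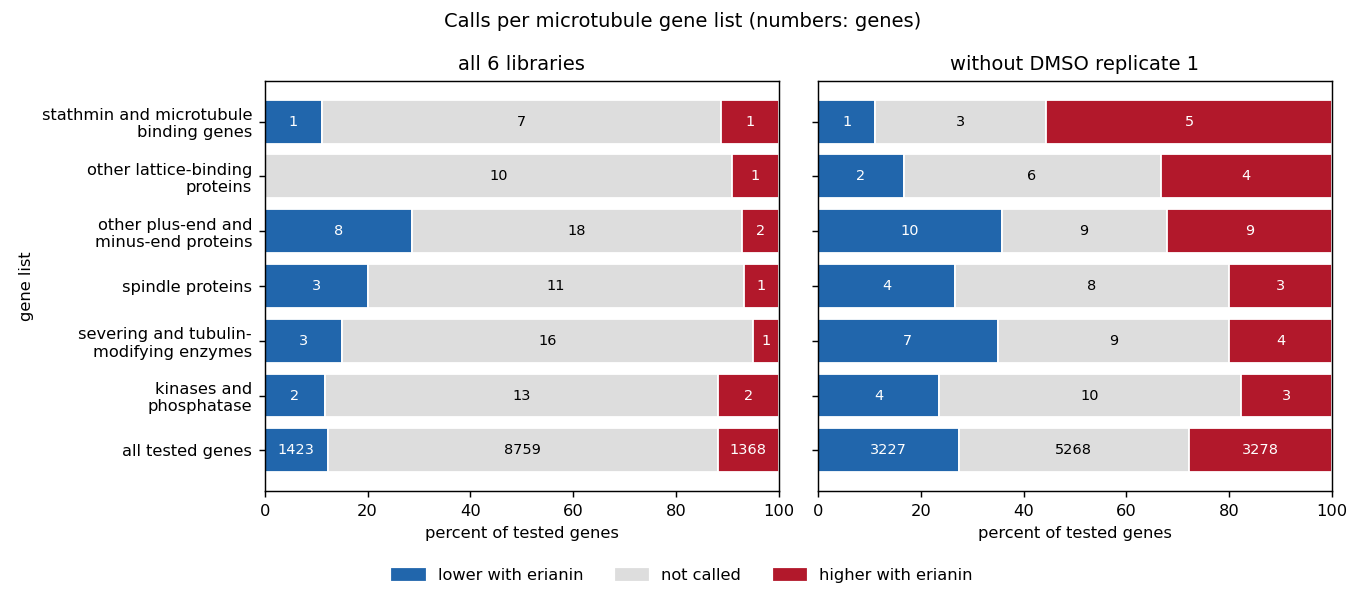
Share of tested genes (horizontal axis, percent) that were lower (blue), not called (grey) or higher (red) with erianin in each microtubule gene list and over all tested genes, with all 6 libraries on the left and without DMSO replicate 1 on the right, and the number of genes printed in each bar. The 9 tested members have 1 lower and 1 higher call on the left and 1 lower and 5 higher calls on the right.

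Among 7937 other tested genes of at least 10 CPM in the higher group, the pattern of log2 CPM over the 6 libraries was most like that of CLASP1 in FAM76B, XRN1 and FAM72D (Pearson r = 0.9997, 0.998 and 0.998). FAM72D belongs to a family of near-identical copies, so its reads may be split among them. For MAP1S the most alike were CLUH, TMEM184B and ZNF771 (r = 0.993, 0.991 and 0.989). TMEM184B itself was not called (log2 fold change 0.20 ± 0.11, edgeR adjusted p = 0.21). At least 0.95 was reached by 714 of the 7937 genes for CLASP1 and by 88 for MAP1S. The 6 libraries share the treatment and the position of DMSO replicate 1, so a high value alone does not tie 2 genes together.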

How the data were processed

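RNA of SU-DHL-8 cells was measured in 6 libraries, 3 per group, grouped by their titles. Raw counts for each gene, as whole numbers, were deposited together with TPM (counts scaled by gene length). StringTie 2.2.1, featureCounts 2.0.1, STAR 2.7.10, fastp 0.23.2 and the build GRCh38 (hg38) appear in the submitters' processing notes, with no role. The sources used here give neither the annotation release nor the treatment of strand and multi-mapped reads. Summed without 61 repeats of a symbol, the deposited TPM of DMSO replicate 1 added up to 391827 and those of each other library to 635739 to 667491. Over the symbols kept, TPM thus scaled that library differently, and the TPM of the repeats was not summed.

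Of 65807 rows, 61 repeats of a symbol were left out. edgeR 4.0.16 in R 4.3.3 fitted counts scaled by TMM after filterByExpr, with treatment as the single term. The SE is the size of the log2 fold change divided by the root of F. CPM are given with TMM factors, mean ± SD (n = 3). Alternatives were DESeq2 size factors, upper-quartile and total-count scaling, 2 filters, DESeq2 1.42.0, limma-voom and limma-trend (limma 3.58.1) on log2 TPM with 1 or 0.1 added, the replicate block, each library left out, and per-library offsets from smooth terms in GC content and length (mgcv 1.9.3), alone, with the block and without DMSO replicate 1. The main edgeR fit and the edgeR fit with offsets in all 6 libraries were tested on simulated counts. The other fits were not. Gene coordinates, exonic lengths and GC content came from GENCODE release 29 (GRCh38), whose release may differ from the one counted against, and promoter windows from RefSeq (GRCh38.p14), which matched 10 of 10 members. For paralog ratios the test was an exact permutation of libraries, two-sided (scipy 1.17.1).

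The members, lists and named genes were chosen with earlier results of these data known. Named genes were the 10 members, the 2 called genes with the smallest p in each direction of each list, and the 3 genes most correlated with the member of smallest p in each direction.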

Additional observations from a re-analysis of the deposited data

How the results depend on the processing

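With all 6 libraries 2791 genes, 2 members and 23 genes of the other microtubule lists were called. Leaving out 1 library at a time gave 745 to 6505 genes, 0 to 6 members and 5 to 50 list genes, with the highest values without DMSO replicate 1 and the lowest without an erianin library. With offsets for GC content and length, 1 member and 35 list genes were called, and with the offsets and without DMSO replicate 1, 7244 genes, 6 members and 61 list genes. On the log2(TPM + 1) scale 1670 genes, 1 member and 12 list genes were called, and on the log2(TPM + 0.1) scale 1508, 1 and 11. Total counts alone gave 1 member. Of all calls, 49.0% were higher with TMM, 61.7% with upper-quartile scaling, 66.7% with total counts, 84.3% and 83.8% on the TPM scales, and 40.9% with the offsets. Total counts alone moved the median of all genes to 0.11, and the TPM scales moved it to 0.20 and 0.28, so the members' log2 differences under them include that shift. Why the calls changed was not tested.

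CLASP1 kept its direction under all 19 alternatives and was called under 13, and MAP1S kept its direction under all 19 and was called under 10. Directions turned for members near 0. MAPRE1 was at -0.086 with the offsets, -0.080 with the replicate block and offsets, -0.21 with the offsets and without DMSO replicate 1, and -0.019 to 0.088 with 1 library left out. With 1 library left out MAP4 ran from -0.0026 (without DMSO replicate 3) to 0.33, and CLIP1 from -0.14 (without DMSO replicate 2) to 0.36. CLASP2 was at 0.13 and 0.16 on the TPM scales, 0.0067 with the offsets and 0.014 with the replicate block and offsets.

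Whether the replicate numbers pair the libraries could not be decided. Deviations from the group means of libraries with the same number correlated at 0.223, -0.231 and 0.316. DMSO replicate 1 correlated best with erianin replicate 2, at 0.246, close to its 0.223 with erianin replicate 1. DMSO replicate 1 stood apart, so the deviations of the other DMSO libraries largely mirrored its own. Such correlations can neither show nor exclude pairing. With the replicate block 2296 genes, 2 members and 16 list genes were called, and with the replicate block and offsets 1 member. ARHGEF2, ATAT1 and AURKB were not called with the block (edgeR adjusted p = 0.0841, 0.0629 and 0.0547). STMN3 (16 to 61 counts) and MAP7 (at most 4) are limited by depth.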
